A study of Homo sapiens with 24 samples.

Results

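The genes described here are the 57 that kept the smallest share of their control level in an HEK293 line overexpressing ZC3H7B, a zinc finger protein of the CCCH type that binds RNA. HEK293 is an established human embryonic kidney line. The 12 libraries of each line were pooled and each gene was expressed as its share of the reads in the pool. Libraries with more reads thus weigh more in this share. Of 19692 entries in the count tables, 19242 name a single gene and 8860 of these had at least 100 pooled control reads. The 60 with the lowest ratio of overexpressing to control line were taken, and 3 with ZNF symbols (ZNF43, ZNF502 and ZNF681) were dropped. The ratio between the lines thus chose the members, and their line difference is given as a description, with no test.

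Both lines of HEK293 had received 24 h of 4-thiouridine at 100 µM together with doxycycline at 1 µg/mL, followed by a chase in 10 mM uridine. By their labels both lines carried a Flag/HA construct, that of the control in one line and that of overexpressed ZC3H7B in the other (ZC3H7B-OE). Doxycycline and the thiol label were shared by all samples. RNA was taken before the chase (0 h) and after 2, 4 and 6 h of it, which with 2 lines gave 8 groups of 3 libraries. The labels do not give the promoter of the construct, nor whether a line is a clone or a pool, nor whether the 3 libraries of a group came from separate cultures. The p-values thus rest on the spread among libraries of a group, part or all of which could be technical.

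An mRNA level is set by synthesis and by decay. In catabolic SLAM-seq the thiol label is alkylated after extraction and then read as C in place of T, so reads with T>C conversions (labelled reads) come from RNA made during the pulse and disappear as this RNA decays in the chase. The genes in question belong to no single pathway. Several code for molecules at the cell surface: teneurins bind latrophilins across cell contacts, nectins join neighbouring cells at adherens junctions, and membrane-type metalloproteinases cut the matrix around them. Others belong to the synaptic vesicle, to secreted ligands, or to the immediate early transcription factors, whose short-lived mRNAs follow growth factor signalling within minutes.

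The label of near loss holds for a minority of the members. Residual levels in ZC3H7B-OE ran from 0.867% to 35.9% of control, with a median of 29.7%, while the median over all 8860 eligible genes was 103%. Of the 57 members, 10 lay below 10% of control: CHRM3, TENM1, MMP16, PVRL3, BCHE, CGA, LIPH, SNAI2, SPARC and SYT1. The next were OSTN and CCDC149, both at 13.1%, and the other 47 members together kept between 13.1% and 35.9%. By bands, 5 members lay below 5%, 5 between 5% and 10%, 4 between 10% and 20%, 17 between 20% and 30%, and 26 between 30% and 40%. Just inside the limit of the rule were CCNG2 (35.0%), C3orf14 (35.0%), FGF12 (35.0%), SFR1 (35.6%) and TMEM65 (35.9%). Just outside stood KIAA1430 (36.5%), LYRM5 (36.5%), ZNF610 (36.6%), KCTD12 (36.6%) and WIPF1 (37.2%), so the lower end of the list has no gap at its boundary. Among all eligible genes, 12 were below 10% of control, 275 below 50%, 46 above 200% and 1 above 1000%.

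**Figure D1:**
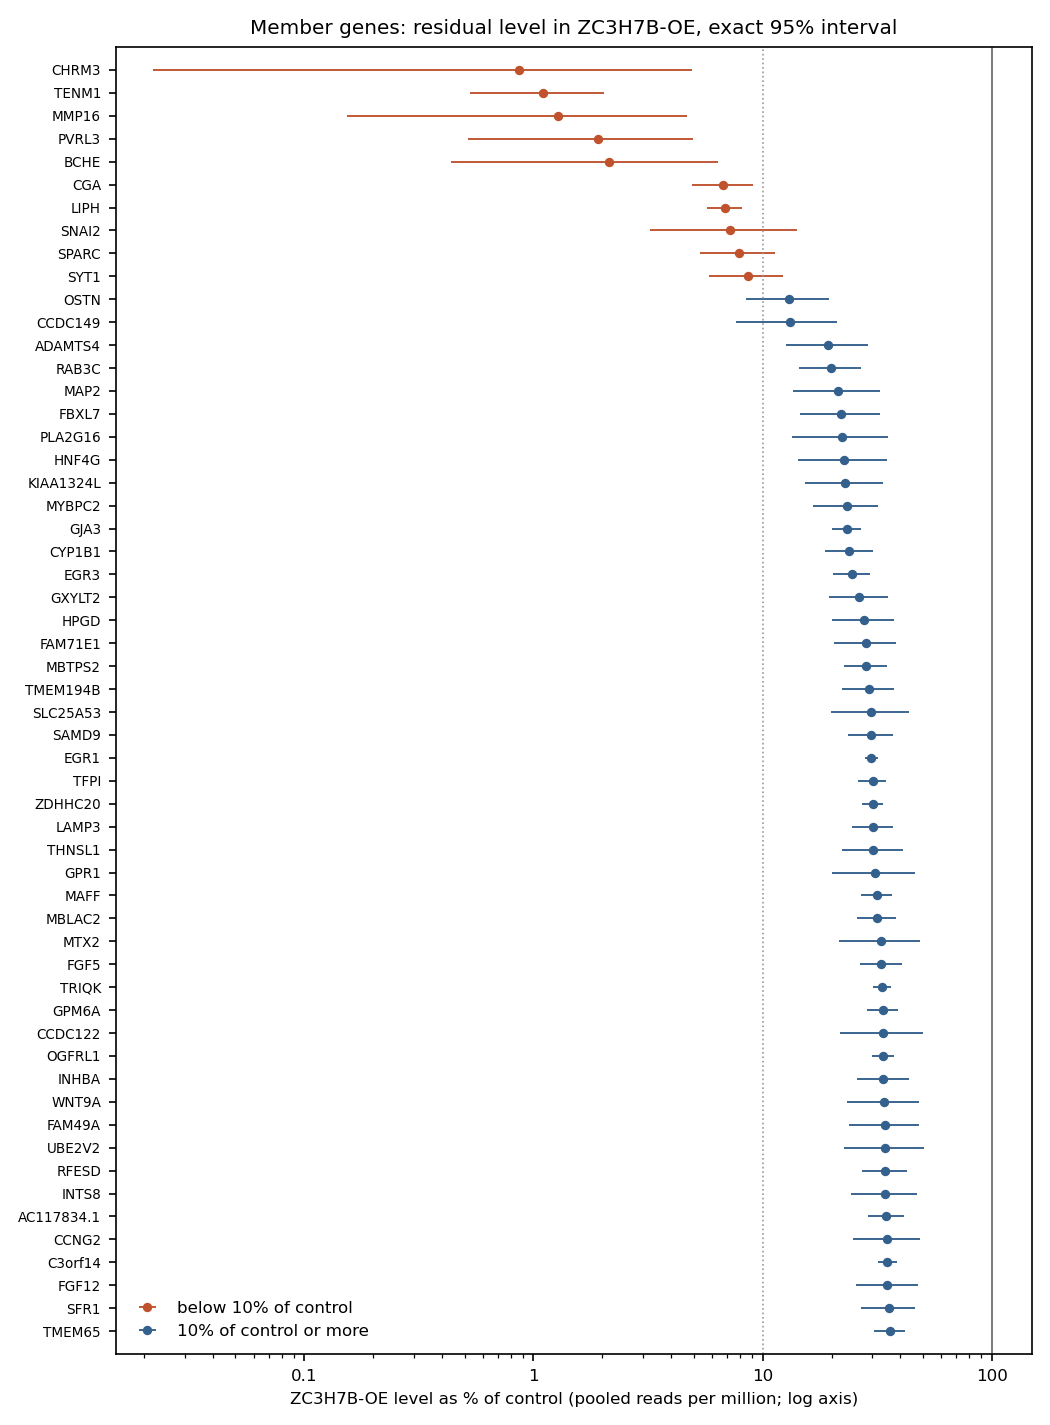
Pooled level in ZC3H7B-OE as a percentage of control for 56 of the 57 genes, on a log axis, with exact 95% intervals for counting error. The 10 genes in orange lie below 10%, and the other 46 shown gather between 13.1% and 35.9%.

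All 57 members passed the filter on low counts. In the fit across all genes (edgeR, adjusted p under 0.05) 45.8% of 10038 tested entries differed between the lines, 25.4% lower and 20.4% higher in ZC3H7B-OE. The members' own calls are not counted, since the same contrast chose them. In 13 members every ZC3H7B-OE library was below every control library, and in the other 44 the libraries of the lines overlapped. This separation was found in 1.56% of all tested entries, and nothing is read from the members' count, because the rule used the same libraries. In bulk RNA, fewer cells that express a gene and less RNA of that gene per cell cannot be told apart.

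Depth ran from 1502068 to 3676254 reads in a library, with 830574 to 1579744 labelled reads among them. Control 0 h replicate 3 stood apart, with reads in 11032 entries against 12005 to 13201 in the others and a TMM scaling factor of 0.726 where the others were at least 0.926. It held the highest control level of 13 members, against 24.2% of all tested entries. Without it the residual level over all times had a median of 29.3% and a maximum of 40.9%, and 10 members stayed below 10%. ZC3H7B itself was 0.28 higher on the log2 scale in ZC3H7B-OE (SE 0.08, edgeR adjusted p = 0.00347), and the lines overlapped, with 192 to 376 CPM in control (median 234) and 254 to 463 in ZC3H7B-OE (median 292). CPM are counts scaled to a common library size, here with TMM. Of 13 listed markers of HEK293, 12 were counted, and they summed to 660 to 1223 CPM in control libraries and 879 to 1088 in ZC3H7B-OE. Most of these reads came from IGF2BP1 (15475 pooled control and 16936 ZC3H7B-OE reads) and LIN28B (10155 and 5984). PAX2 (3 and 10 reads) and NEFM (1 and 1) were almost absent. Markers of fibroblasts (7 genes) summed to 0.313 to 6.14 and 0.382 to 6.87, of leukocytes (8) to 42.3 to 203 and 60.3 to 134, of endothelium (4) to 0 to 20.2 and 0.382 to 19.3, and of epithelia (6) to 103 to 472 and 103 to 258. Those of neurons (7, among them the members MAP2 and SYT1) summed to 22.0 to 64.5 and 19.9 to 51.9, and of hepatocytes (4) to at most 1.54 and 1.72. CD68 (1908 and 2287 reads) gave most of the leukocyte reads and KRT10 (4336 and 4259) most of the epithelial ones. COL1A2, DCN, PTPRC, CD3E, VWF, CDH5, KRT14 and APOA1 had no read, and the part of any mixture of cells was not tested.

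The promoters of the members were compared with those of the eligible genes, because synthesis starts there and the rule did not use sequence. RefSeq windows (GRCh38.p14) of 300 bases, 250 before the start of transcription and the rest after it, were found for 39 members. Of these, 8 were among the 10 below 10%. The first listed start of a gene was taken, and whether these cells use it was not tested. Eligible genes were not matched to the members for expression level. A window with an observed to expected ratio of CG dinucleotides of at least 0.6 was called CpG-rich. This held for 26 of the 39 members (66.7%), for 86.7% of the 7167 eligible genes with a window and for 49.0% of all 27305 genes in the table. Among the 8 lowest members with a window only 2 were CpG-rich, TENM1 and PVRL3 (RefSeq NECTIN3), and the median ratio was 0.485 against 0.857 in eligible genes. The letters TATAAA, on either strand, stood in 6 member windows (15.4%) against 5.25% of eligible ones: those of BCHE, CGA, LIPH, OSTN, INHBA and SFR1. The letters CAGGTG, the E-box core bound by SNAI2, stood in 9 member windows (23.1%) against 17.1%. These are descriptions of letters in a window and show no binding.

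The 250 bases before the start are given for the 4 lowest members whose window holds TATAAA. For contrast, they are then given for the 2 members below 10% whose whole window was called CpG-rich. The window also holds bases after the start, which are not printed. Of the CG dinucleotides in the window, the printed bases hold 8 of 15 in TENM1 and 27 of 36 in PVRL3. The call of TENM1 (ratio 0.647) thus rests in part on bases not printed. Ratios for the printed bases alone were not calculated. Capitals mark CG dinucleotides and TATAAA on either strand. In CGA and OSTN the TATAAA begins 29 and 30 bases before the start, where a TATA box usually stands, while in LIPH and BCHE it begins 105 and 101 bases before it. The CGA run also holds TGACGTCA, the cyclic AMP response element, in 2 copies. That motif was searched only after the CGA sequence had been seen, and stood in 3.54% of eligible windows and in 2 of the 39 member windows, CGA and MAFF.
CGA (chr6:87095107-87095356, minus strand): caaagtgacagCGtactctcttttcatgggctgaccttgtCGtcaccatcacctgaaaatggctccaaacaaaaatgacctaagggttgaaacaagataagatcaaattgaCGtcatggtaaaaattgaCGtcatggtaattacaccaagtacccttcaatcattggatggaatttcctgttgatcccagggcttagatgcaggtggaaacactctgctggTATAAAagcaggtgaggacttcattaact
LIPH (chr3:185552589-185552838, minus strand): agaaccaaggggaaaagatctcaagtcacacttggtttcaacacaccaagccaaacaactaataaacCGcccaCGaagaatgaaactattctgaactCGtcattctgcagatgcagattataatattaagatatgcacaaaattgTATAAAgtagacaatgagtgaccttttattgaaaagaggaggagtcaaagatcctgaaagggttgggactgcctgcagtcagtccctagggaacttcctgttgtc
BCHE (chr3:165837424-165837673, minus strand): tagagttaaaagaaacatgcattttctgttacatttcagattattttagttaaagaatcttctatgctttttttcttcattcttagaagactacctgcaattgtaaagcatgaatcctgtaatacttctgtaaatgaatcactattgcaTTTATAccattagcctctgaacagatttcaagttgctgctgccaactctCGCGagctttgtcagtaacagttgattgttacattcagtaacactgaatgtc
OSTN (chr3:191198991-191199240, plus strand): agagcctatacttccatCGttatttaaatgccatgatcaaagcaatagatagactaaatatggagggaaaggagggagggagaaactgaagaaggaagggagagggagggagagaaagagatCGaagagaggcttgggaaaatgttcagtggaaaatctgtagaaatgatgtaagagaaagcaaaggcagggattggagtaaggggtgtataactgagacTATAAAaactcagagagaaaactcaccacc
TENM1 (chrX:125204313-125204562, minus strand): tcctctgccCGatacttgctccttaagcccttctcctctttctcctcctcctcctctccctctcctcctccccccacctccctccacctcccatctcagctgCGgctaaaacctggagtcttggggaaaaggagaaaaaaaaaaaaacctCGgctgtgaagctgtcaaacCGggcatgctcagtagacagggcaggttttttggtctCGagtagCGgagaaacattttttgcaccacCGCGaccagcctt
PVRL3 (chr3:111071566-111071815, plus strand): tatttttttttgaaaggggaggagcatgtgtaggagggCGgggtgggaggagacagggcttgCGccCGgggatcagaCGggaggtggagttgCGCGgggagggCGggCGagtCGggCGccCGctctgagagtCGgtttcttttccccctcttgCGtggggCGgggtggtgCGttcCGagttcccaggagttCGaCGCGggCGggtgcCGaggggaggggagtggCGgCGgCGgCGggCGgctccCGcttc

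Adhesion and junction genes held 3 members. TENM1 (ENSG00000009694), a teneurin of neuronal cell contacts, kept 1.10% of its control level (95% interval 0.526% to 2.03%), with 921 control and 10 ZC3H7B-OE reads. The control libraries gave 30.9, 32.5 and 20.2 CPM before the chase, 35.2, 40.9 and 38.7 after 2 h, 44.6, 35.6 and 37.6 after 4 h, and 21.7, 35.3 and 17.4 after 6 h. In ZC3H7B-OE only 3 libraries had a read: 1.93 CPM in 1 library before the chase, and 0.535 and 2.54 CPM in 2 libraries after 2 h. The lines did not overlap, and after 4 h, with 0 of 8136001 reads, a floor of 3 reads corresponds to 0.919% of control.

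PVRL3, the nectin that pairs with other nectins at adherens junctions, kept 1.91% (0.517% to 4.97%), with 212 and 4 reads. Its control libraries ranged from 1.83 to 12.0 CPM with a median of 6.48, and 9 of the 12 ZC3H7B-OE libraries were at 0, the highest holding 0.729. The libraries of the lines did not overlap. GJA3, a connexin of gap junctions best known from the lens, kept 23.4% (20.1% to 27.0%). It held 24.5, 21.7 and 19.3 CPM in control before the chase and 50.7, 36.0 and 47.1 after 6 h. ZC3H7B-OE libraries held 5.91, 5.80 and 6.35 CPM before the chase and 8.92, 11.0 and 9.49 after 6 h, again with no overlap.

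Relatives of TENM1 and PVRL3 were taken from gene lists, and their counts are to be read against the 20.4% of all tested entries that were higher and the 25.4% that were lower. Of 5 other teneurins and latrophilins tested, 1 was higher in ZC3H7B-OE and 0 lower: the latrophilin LPHN1, a receptor for teneurins, with a log2 difference of 0.99 (SE 0.12, adjusted p = 4.7e-08 in edgeR). Of 6 other nectins and CADM proteins, PVRL1 (log2 0.75, SE 0.11, adjusted p = 7.3e-07) and PVRL2 (0.50, SE 0.12, adjusted p = 0.000805) were higher and CADM1 was lower (-0.38, SE 0.06, adjusted p = 9.4e-06). PVRL1 went from 51.5 ± 11.9 CPM (SD, n = 12 libraries) in control to 89.1 ± 22.3. The other adhesion lists had no member. Among 18 tested cadherins and protocadherins 5 were higher and 2 lower, among 10 integrins 1 and 3, and among 16 neuronal adhesion proteins of the immunoglobulin superfamily 1 and 6.

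Genes of the extracellular matrix and of proteolysis outside the cell held 5 members, of which 4 are described. MMP16, a membrane-anchored metalloproteinase, kept 1.28% (0.153% to 4.69%), from 159 control reads to 2. Values in control were 0.979, 4.33 and 2.75 CPM before the chase, 3.57, 3.23 and 4.84 after 2 h, 5.97, 6.58 and 5.32 after 4 h, and 7.10, 9.43 and 7.42 after 6 h. Of the 12 ZC3H7B-OE libraries 10 were at 0, and the others, 1 after 4 h and 1 after 6 h, held 0.370 and 0.365 CPM. Control libraries were thus all above all ZC3H7B-OE libraries.

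SPARC, a secreted protein that binds collagen, kept 7.90% (5.33% to 11.3%), with 411 and 32 reads. Values in control were 20.6, 13.5 and 33.9 CPM before the chase and 6.77, 6.98 and 15.1 after 6 h, while ZC3H7B-OE held 2.96, 4.83 and 1.16 before the chase and 1.19, 0 and 0 after 6 h. No ZC3H7B-OE library reached the lowest control library at 6.77 CPM. ADAMTS4, which cleaves the proteoglycan aggrecan, kept 19.4%, and TFPI, the inhibitor of the tissue factor pathway of coagulation, kept 30.2% (26.2% to 34.7%). TFPI ranged from 13.0 to 43.3 CPM in control (median 31.2) and from 1.77 to 15.7 in ZC3H7B-OE (median 7.85), with overlap in the 2 highest ZC3H7B-OE libraries.

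Of 9 other tested metalloproteinases and their inhibitors 2 were higher and 2 lower in ZC3H7B-OE. TIMP3, an inhibitor bound to the matrix, had a log2 difference of -0.86 (SE 0.08, edgeR adjusted p = 1.4e-10) and TIMP2 of -0.60 (SE 0.12, adjusted p = 0.000184). MMP24, a membrane-type relative of MMP16, was higher by 0.77 (SE 0.09, adjusted p = 1.4e-08). Its mean was 56.6 ± 16.5 CPM in the control libraries against 95.2 ± 24.8 in those of ZC3H7B-OE (SD, n = 12 each), opposite in direction to MMP16.

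Ligands and receptors of signalling held 7 members. CHRM3, the muscarinic acetylcholine receptor that signals through Gq, kept 0.867% (0.0218% to 4.93%), with 117 control reads and 1 read in ZC3H7B-OE. Its control libraries gave 4, 0 and 0 reads before the chase, 10, 2 and 2 after 2 h, 23, 30 and 16 after 4 h, and 7, 11 and 12 after 6 h. The only ZC3H7B-OE read lay in replicate 1 before the chase, where 2 control libraries were at 0, so the lines overlapped at that time. BCHE, the butyrylcholinesterase that hydrolyses choline esters, kept 2.14% (0.437% to 6.39%). Its control libraries ranged from 1.08 to 7.70 CPM (median 5.17), 10 of 12 ZC3H7B-OE libraries were at 0, and the highest held 0.660, with no overlap. Of 10 other tested cholinergic genes 3 were higher and 2 lower. CHRNA5 (log2 -0.76, SE 0.13, edgeR adjusted p = 1.6e-05) and CHRNA3 (-1.03, SE 0.29, adjusted p = 0.00395) code for nicotinic receptor subunits. COLQ, the collagen tail of acetylcholinesterase, was higher (0.67, SE 0.20, adjusted p = 0.00716).

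CGA, the alpha subunit shared by the glycoprotein hormones, kept 6.74% (4.93% to 9.04%), with 722 and 48 reads. The control libraries gave 29.9, 33.1 and 138 CPM before the chase, 24.0, 22.1 and 21.0 after 2 h, 16.3, 19.0 and 19.4 after 4 h, and 17.9, 19.2 and 17.7 after 6 h. The ZC3H7B-OE libraries gave 1.77, 2.90 and 1.16 CPM before the chase, 1.72, 1.07 and 2.54 after 2 h, 0, 1.85 and 2.19 after 4 h, and 1.19, 1.69 and 2.19 after 6 h. Control 0 h replicate 3 stood far above the other control libraries, and without it CGA kept 8.08%. No other gene of the glycoprotein hormone list passed the filter on low counts, so no relative could be set beside it.

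Growth factors kept larger shares, FGF5 33.0% (26.6% to 40.7%), INHBA 33.7% (25.8% to 43.6%) and WNT9A 33.8% (23.4% to 48.1%). These pooled shares give late times more weight, since control held 5341480 reads at 0 h and 9720849 at 6 h. With equal weight for each time the fitted log2 difference was -1.23 for FGF5, -1.07 for INHBA and -1.67 for WNT9A. That of INHBA was the smallest of any member, where the median member was at -1.88. FGF5, a secreted fibroblast growth factor, held 7.35, 3.25 and 9.17 CPM in control before the chase and 24.4, 23.7 and 25.1 after 6 h. In ZC3H7B-OE it held 4.14, 6.28 and 0 CPM before the chase and 3.57, 7.34 and 7.30 after 6 h. The lines overlapped before the chase and were apart after 6 h. INHBA, the subunit of activin A, ran from 0.490, 1.08 and 1.83 CPM before the chase to 11.2, 11.2 and 16.5 after 6 h in control, and from 1.18, 2.41 and 0 to 3.86, 3.10 and 4.38 in ZC3H7B-OE. WNT9A, a secreted WNT ligand, ranged between 2.69 and 9.13 CPM in control libraries and between 0 and 6.61 in ZC3H7B-OE, where 11 of 12 libraries were below the lowest control library. OSTN, a small secreted peptide of muscle and bone, kept 13.1%, and GPR1, a receptor for chemerin, kept 30.9%, both with overlapping libraries.

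Among 30 other tested receptor tyrosine kinases and growth factor ligands 5 were higher and 11 lower in ZC3H7B-OE, with a median log2 difference of 0.05. VEGFA (-0.59, SE 0.07, edgeR adjusted p = 1.2e-08) and FGF9 (-0.86, SE 0.10, adjusted p = 2.0e-08) were lower, and the receptor FLT4 was higher (0.82, SE 0.12, adjusted p = 8.2e-07). Among 48 other WNT, BMP, TGF-beta and Notch ligands and receptors 7 were higher and 10 lower, with a median of -0.12. BMP7 was higher (0.63, SE 0.08, adjusted p = 2.8e-08), and BMPR1A (-0.58, SE 0.09, adjusted p = 2.2e-06) and WNT5A (-0.68, SE 0.11, adjusted p = 3.4e-06) were lower. The median over all tested entries was 0.01.

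Enzymes of lipids and small molecules held 5 members. LIPH, a phospholipase that makes lysophosphatidic acid at the cell surface, kept 6.86% (5.73% to 8.16%), with 2040 control and 138 ZC3H7B-OE reads. In the control line LIPH stood at 82.8, 72.6 and 75.2 CPM before the chase, 91.7, 103 and 77.5 after 2 h, 67.9, 69.2 and 58.9 after 4 h, and 65.3, 74.0 and 52.8 after 6 h. The ZC3H7B-OE libraries gave 7.10, 6.76 and 2.31 CPM before the chase, 2.30, 7.49 and 2.03 after 2 h, 2.64, 5.92 and 4.01 after 4 h, and 4.76, 6.77 and 4.02 after 6 h. LIPH was the most deeply read of the members below 10%, and its lowest control library stood at 52.8 CPM against a ZC3H7B-OE maximum of 7.49. All 4 other tested genes of its list passed the test: the lysosomal lipase LIPA (log2 -0.82, SE 0.17, edgeR adjusted p = 0.000605) and the lysophosphatidic acid receptor LPAR3 (-0.49, SE 0.10, adjusted p = 0.000202) were lower with 1 more gene, and LPAR2 was higher (1.52, SE 0.36, adjusted p = 0.000753). LIPA varied widely among the control libraries of the 4 times, at 152 ± 145 CPM (SD, n = 12 libraries). CYP1B1, a cytochrome P450 of steroids and xenobiotics, kept 23.9% with no overlap between the lines. PLA2G16, a phospholipase (RefSeq PLAAT3), kept 22.2%, and HPGD, the dehydrogenase that inactivates prostaglandins, kept 27.6%. HPGD held 53.2 CPM in control 0 h replicate 3 and at most 10.3 elsewhere, and without that library it kept 36.7%.

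Transcription factors held 5 members. SNAI2, a repressor that binds E-boxes and drives cells from an epithelial to a mesenchymal state, kept 7.19% (3.21% to 14.1%), with 127 and 9 reads. Its control libraries gave 0.490, 1.63 and 1.83 CPM before the chase and 6.09, 6.63 and 7.70 after 6 h. In ZC3H7B-OE 7 of 12 libraries were at 0, and the 3 libraries after 6 h held 0.297, 0.846 and 1.10 CPM. At 0 h, where control was itself near 1 CPM, the lines overlapped. Of 11 other tested genes in the list of Snail, ZEB and TWIST factors and their targets 1 was higher and 3 were lower. ZEB2, a further repressor of this group, had a log2 difference of -0.66 (SE 0.13, edgeR adjusted p = 6.3e-05). The epithelial junction gene OCLN was also lower (-0.45, SE 0.10, adjusted p = 0.000236), as was EPCAM (-0.46, SE 0.16, adjusted p = 0.0148). EPCAM lost the call when 0 h or 2 h was left out of the mean (adjusted p = 0.160 and 0.0809).

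EGR1, an immediate early zinc finger factor, kept 29.8% (27.9% to 31.9%) and had the most reads of any member, 3805 in control. The control libraries gave 91.6, 94.3 and 49.5 CPM before the chase, 114, 95.3 and 88.8 after 2 h, 160, 166 and 174 after 4 h, and 152, 159 and 149 after 6 h. The ZC3H7B-OE libraries gave 37.9, 26.1 and 37.5 CPM before the chase, 19.5, 32.1 and 37.1 after 2 h, 41.9, 34.4 and 37.9 after 4 h, and 38.0, 52.2 and 47.8 after 6 h. Only control 0 h replicate 3 came below a ZC3H7B-OE library. Its relative EGR3 kept 24.5% (20.2% to 29.5%), from 8.08 to 35.4 CPM in control (median 15.7) and from 1.77 to 8.09 in ZC3H7B-OE (median 3.82). MAFF, a small Maf factor induced by stress, kept 31.5% (26.9% to 36.7%), from 9.17 to 38.8 CPM against 2.41 to 13.2. HNF4G, a nuclear receptor of gut and kidney, kept 22.7% with 116 control reads.

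Genes of neurons held 5 members. SYT1, the calcium sensor of synaptic vesicle release, kept 8.61% (5.84% to 12.3%), with 389 and 33 reads. The control libraries gave 3.92, 5.96 and 8.25 CPM before the chase, 14.3, 7.54 and 3.77 after 2 h, 16.0, 23.6 and 15.2 after 4 h, and 21.7, 14.0 and 16.0 after 6 h. The ZC3H7B-OE libraries gave 0.591, 0 and 0 CPM before the chase, 3.44, 0 and 2.03 after 2 h, 0.660, 1.85 and 1.09 after 4 h, and 0.594, 1.41 and 1.83 after 6 h. No library of the one line reached those of the other, although the 2 h groups came close, at 3.77 and 3.44 CPM.

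RAB3C, a small GTPase of secretory vesicles, kept 19.9% (14.4% to 27.0%), from 1.47, 1.08 and 1.83 CPM before the chase to 10.8, 7.68 and 13.1 after 6 h in control. In ZC3H7B-OE it went from 0.591, 0 and 0 CPM to 2.08, 2.54 and 3.65. MAP2, the microtubule-associated protein of dendrites, kept 21.4% (13.6% to 32.6%) over all times, with 0.979, 2.17 and 1.83 CPM in control and 2.37, 1.93 and 0.578 in ZC3H7B-OE before the chase, where the lines overlapped. GPM6A, a neuronal membrane glycoprotein, kept 33.4% (28.7% to 38.8%). It held 31.8, 49.3 and 111 CPM in control before the chase and 11.2, 7.68 and 19.1 after 6 h, against 10.6, 14.5 and 20.2 and then 2.97, 5.92 and 6.21 in ZC3H7B-OE. FGF12, an intracellular relative of the growth factors that binds sodium channels, kept 35.0% (25.5% to 47.6%), and it held 19.3 CPM in control 0 h replicate 3 and at most 8.12 in the others.

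Other genes of the neuronal cytoskeleton, synapse and channels moved in both directions. Of 28 non-members tested 9 were higher and 5 lower in ZC3H7B-OE, with a median log2 difference of 0.37 against 0.01 for all entries. KCNC1, a voltage-gated potassium channel, was higher by 1.05 (SE 0.10, edgeR adjusted p = 2.2e-10), from 25.9 ± 9.42 to 52.1 ± 13.6 CPM (SD, n = 12 libraries). STMN3, a stathmin of neurons, was higher by 0.82 (SE 0.10, adjusted p = 2.1e-08), and the synaptic scaffold HOMER1 was lower (-1.01, SE 0.12, adjusted p = 5.1e-08). Axon guidance genes, a list without a member, gave 4 higher and 3 lower of 30.

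The remaining 27 members came from several classes and kept between 13.1% and 35.9%. Of these, 4 handle membrane proteins and sugars: ZDHHC20, a palmitoyltransferase (30.2%, 27.0% to 33.7%), MBTPS2, an intramembrane protease that releases membrane-bound transcription factors (28.3%, 22.8% to 34.9%), LAMP3, a lysosomal membrane glycoprotein (30.3%, 24.6% to 37.1%), and GXYLT2, a xylosyltransferase (26.4%). ZDHHC20 ranged from 31.2 to 64.1 CPM in control (median 50.9) and from 2.37 to 25.9 in ZC3H7B-OE (median 13.5), with no overlap. MBTPS2 ranged from 4.56 to 29.3 CPM (median 13.5) against 0.564 to 11.0 (median 3.68), and LAMP3 from 5.39 to 25.4 (median 12.2) against 0.509 to 10.4 (median 3.68), both with overlap. Another 3 code for mitochondrial proteins, namely SLC25A53, a carrier of the inner membrane (29.7%), MTX2, a metaxin of the import machinery (32.8%), and TMEM65 (35.9%, 30.5% to 42.0%). TMEM65 ranged from 8.51 to 37.1 CPM in control (median 20.3) and from 4.44 to 12.1 in ZC3H7B-OE (median 6.48). A further 5 act on ubiquitin, the cell cycle or nucleic acids: FBXL7, an F-box protein (22.1%), UBE2V2, a variant of the ubiquitin conjugating enzymes (34.1%), INTS8, of the Integrator complex (34.3%), CCNG2, a cyclin (35.0%), and SFR1, a recombination factor (35.6%).

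The last 15 members were grouped by no shared role. TRIQK ranged from 44.1 to 190 CPM in control (median 63.2) and from 13.6 to 35.5 in ZC3H7B-OE (median 20.3), with no overlap. C3orf14 ranged from 46.8 to 136 CPM (median 55.5) against 11.0 to 27.0 (median 19.9), again with no overlap. The highest value of both came from control 0 h replicate 3, the next being 91.7 and 64.2 CPM. OGFRL1 ranged from 24.9 to 63.6 CPM (median 46.4) against 4.04 to 36.6 (median 11.4), and MBLAC2, a hydrolase with a metallo-beta-lactamase fold, from 8.25 to 22.5 (median 14.2) against 1.45 to 12.7 (median 4.55). AC117834.1 ranged from 8.33 to 25.4 CPM (median 17.4) against 1.16 to 10.2 (median 4.44). In these 3 genes the lines overlapped, with 11, 11 and 10 of 12 ZC3H7B-OE libraries below the lowest control library. The other 10 were CCDC149 (13.1%), KIAA1324L (23.0%), MYBPC2 (23.3%), FAM71E1 (28.2%), TMEM194B (29.0%), SAMD9 (29.7%), THNSL1 (30.3%), CCDC122 (33.5%), FAM49A (34.1%) and RFESD (34.2%). All 10 overlapped between the lines.

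**Figure D2:**
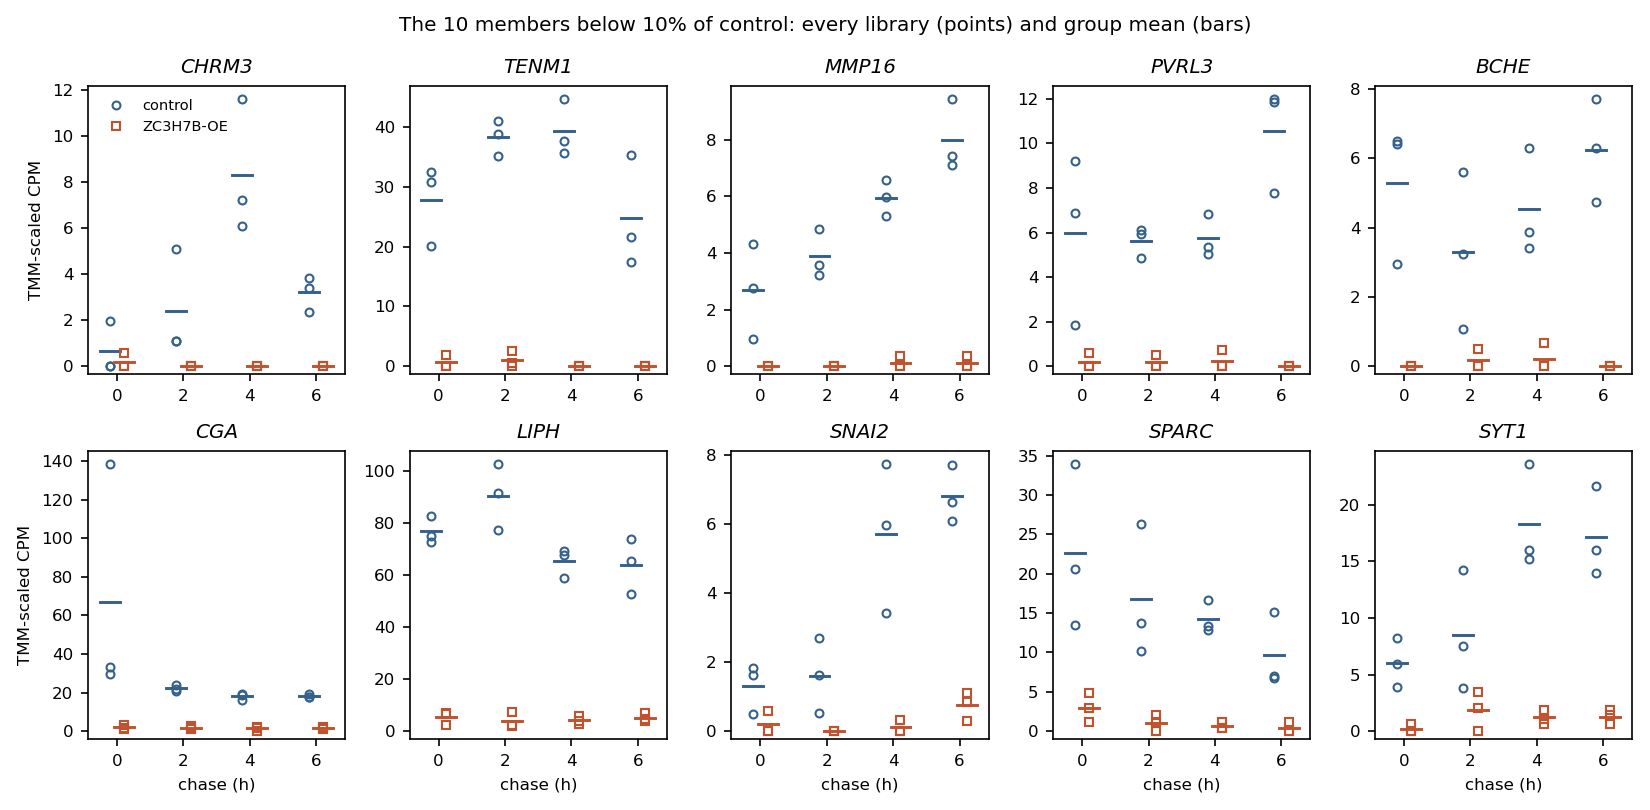
TMM-scaled CPM in every library (points, 3 per line and time) against hours of chase for the 10 members below 10% of control, with bars at group means. Control libraries of MMP16, SNAI2 and SYT1 are higher after 6 h than before the chase, and CGA shows the single control library at 138 CPM.

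Evenness over time was examined because the rule pooled the 4 times. Residual levels had medians of 25.8%, 31.0%, 23.8% and 24.3% of control at 0, 2, 4 and 6 h. At these times 49, 46, 55 and 56 of the 57 members lay below 50% of control, and 40 did so at all 4. A level below 10% was found in 9, 11, 11 and 9 members, and in 6 at all 4 times. Members had no ZC3H7B-OE read in 3, 4, 2 and 4 cases. In 55 members the level was below 100% at every time, the exceptions being MAP2 (110%, 37.7% to 328%) and INHBA (137%, 37.4% to 547%) before the chase, where control had 8 and 5 reads. The highest of the 4 values fell before the chase in 15 members, after 2 h in 22, after 4 h in 8 and after 6 h in 12. Without control 0 h replicate 3, the median before the chase was 25.7%, with 46 members below 50% and 4 at or above 100%, among them FAM49A, INHBA and MAP2, which then had 3, 3 and 6 control reads.

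The test of whether the line difference changed with time called 0 of the 57 members, against 1.73% of all tested entries. Unadjusted p was under 0.05 in 5 members, ZDHHC20, TENM1, MAP2, TRIQK and EGR1, and the lowest adjusted p was 0.151 (edgeR F test over 3 contrasts). DESeq2 called 2 members, ZDHHC20 (adjusted p = 0.0397) and TENM1 (0.0261), and edgeR without the filter on low counts called TRIQK (0.0125) beside them (0.0225 and 0.0210). Leaving out control 0 h replicate 1, edgeR called TRIQK alone among the members (adjusted p = 0.0391). These settings also called more of all entries than the 174 of the main fit. There were 748 with DESeq2, 942 without the filter and 703 when control 0 h replicate 1 was left out. Nothing particular to the members is therefore read from these calls. ZDHHC20 kept 13.5% of control before the chase, 29.7% after 2 h, 27.8% after 4 h and 39.9% after 6 h. TRIQK kept 19.1%, 36.5%, 33.4% and 39.8%, and TENM1 2.70%, 2.90%, 0% and 0%. Of the 436 control reads of TRIQK before the chase, 207 lay in control 0 h replicate 3, which lowers its first value. Several members with few reads before the chase or 2 h were far from their later level: FGF5 kept 63.1% and 90.7% at 0 and 2 h and 26.4% and 25.7% at 4 and 6 h, and LAMP3 kept 77.8% before the chase and 23.4% after 6 h. HPGD had the opposite order, from 15.0% before the chase to 52.5% after 6 h, but 58 of its 98 control reads before the chase lay in control 0 h replicate 3, without which the first value was 26.4%. By contrast LIPH stayed between 4.49% and 8.73%, CGA between 3.94% and 9.51%, and GJA3 between 18.8% and 29.1%. Without control 0 h replicate 3 the value of CGA before the chase was 6.34% in place of 3.94%. A p that misses the threshold does not show that the difference was equal at the 4 times.

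**Figure D3:**
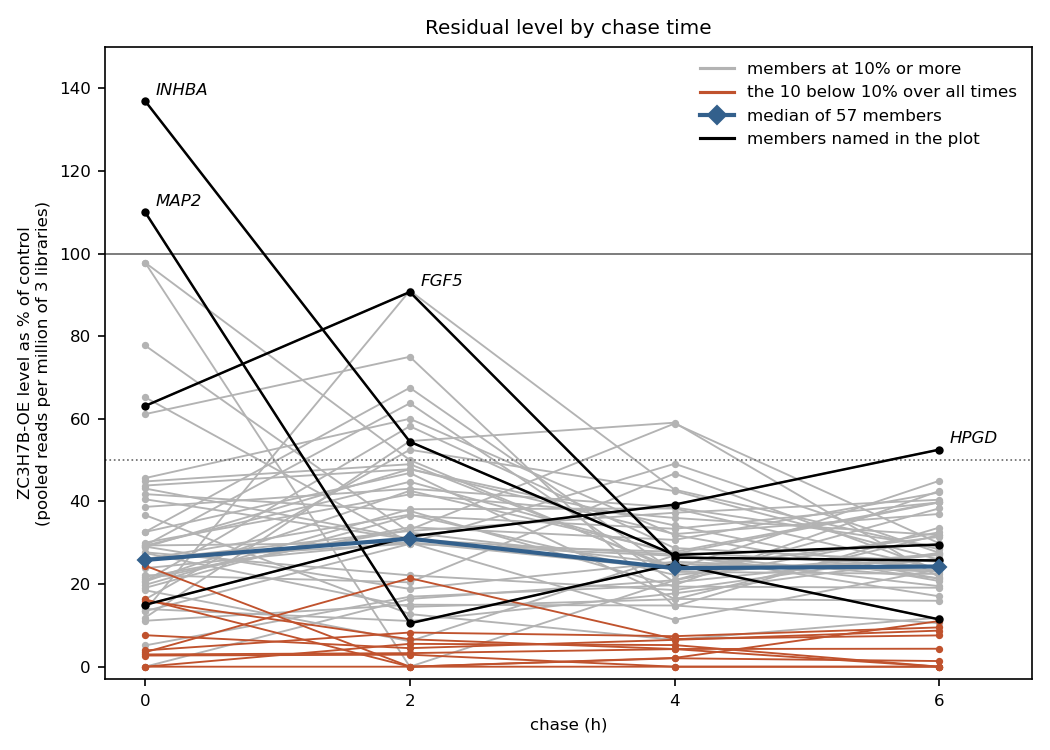
ZC3H7B-OE level as a percentage of control at each chase time, from reads pooled over 3 libraries per line, for the 57 members (grey, orange and, where named, black) with their median (blue). The median lies between 23.8% and 31.0% at every time, and INHBA and MAP2 lie above 100% before the chase.

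The chase within the control line was not what the rule ranked, although the same control reads formed the denominator of the ratio and the minimum of 100 reads. From 0 to 6 h, 17 members rose, 9 fell and 31 were not called (edgeR, adjusted p under 0.05). Among all tested entries 60.6% changed, 30.7% higher and 29.9% lower, so the members' share of changes was no larger than the background. All 5 transcription factors rose: EGR1 (log2 0.94, SE 0.20, adjusted p = 0.000125), MAFF (1.56, SE 0.34, adjusted p = 0.000183), SNAI2 (2.42, SE 0.73, adjusted p = 0.00503), EGR3 (1.05, SE 0.37, adjusted p = 0.0160) and HNF4G (2.34, SE 0.82, adjusted p = 0.0149). Of the neuronal genes 3 rose, RAB3C (2.86, SE 0.62), SYT1 (1.56, SE 0.49) and MAP2 (1.78, SE 0.67). GPM6A fell by 2.28 on the log2 scale (SE 0.38). Of the secreted and matrix genes INHBA (3.60, SE 0.66), FGF5 (1.93, SE 0.49), MMP16 (1.57, SE 0.62) and TFPI (1.16, SE 0.32) rose, and GJA3, OGFRL1, MBLAC2 and LAMP3 did so as well. CGA (-1.83, SE 0.41), SPARC (-1.18, SE 0.47), HPGD (-3.12, SE 0.68), MBTPS2 (-1.88, SE 0.41), SAMD9, MYBPC2, FAM71E1 and RFESD fell.

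Some of these calls rested on single libraries, and 14 of the 26 held with every control library left out in turn and under the other settings tried. Without control 0 h replicate 3 CGA was at -0.77 (adjusted p = 0.0468), HPGD at -1.92 (0.0110) and GPM6A at -1.64 (1.8e-05), all still called. RFESD lost its call without that library (-0.77, adjusted p = 0.185), as did SPARC (-0.80, 0.139) and MMP16 (1.61, 0.0618). SPARC also lost it without control 0 h replicate 1 (0.0520), 6 h replicate 1 (0.116) or 6 h replicate 2 (0.0921). MMP16 lost it without control 0 h replicate 1 (0.176) or 6 h replicate 2 (0.0913). MAP2 lost it without control 0 h replicate 1 (0.116) or 6 h replicate 2 (0.0859), and MYBPC2 without control 0 h replicate 2 (0.222), 6 h replicate 1 (0.0687) or 6 h replicate 2 (0.0911). LAMP3 lost it without control 0 h replicate 1 (0.0764), 0 h replicate 2 (0.0638), 6 h replicate 1 (0.0570) or 6 h replicate 3 (0.0623). Without control 6 h replicate 3 the calls of EGR3 (0.0831), SAMD9 (0.0830), OGFRL1 (0.0692) and MBLAC2 (0.0585) were lost. Without control 0 h replicate 2 those of OGFRL1 (0.0956), HNF4G (0.0774) and FAM71E1 (0.0511) were lost, and without control 0 h replicate 1 that of SAMD9 (0.0516). All p-values in this paragraph are adjusted p from edgeR.

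**Figure D4:**
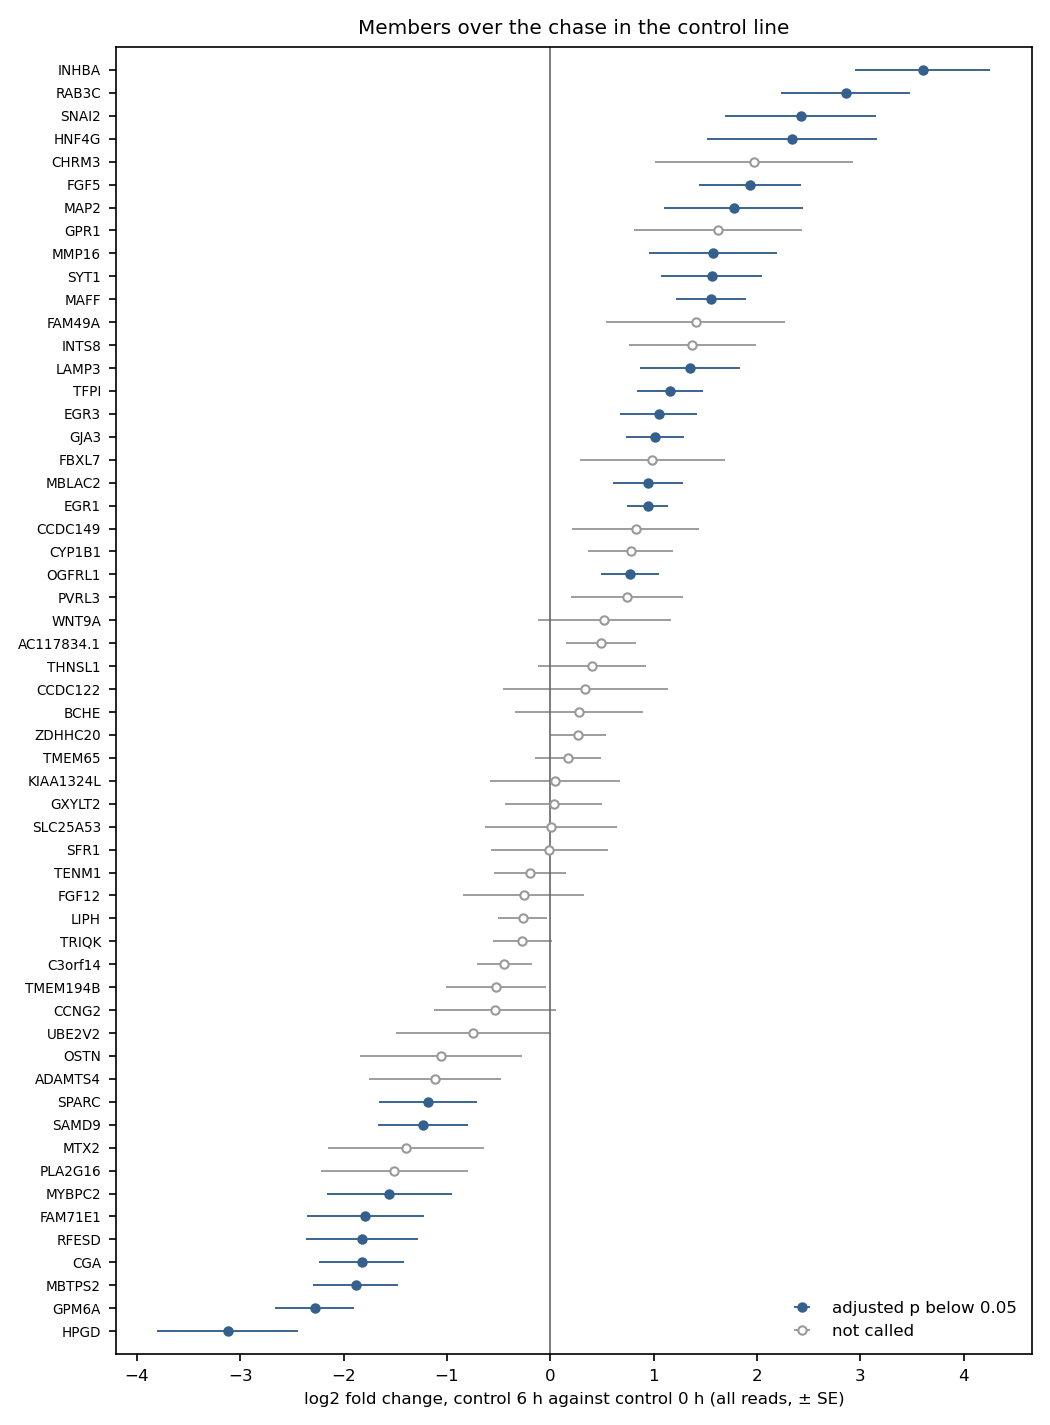
Fitted log2 fold change from 0 to 6 h of chase in the control line for 56 of the 57 members, with standard errors. The 25 called members shown (filled) run from HPGD at -3.12 to INHBA at 3.60, 16 of them above 0.

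Within ZC3H7B-OE the same contrast, added after the data had been seen, called 10 members higher and 5 lower, where 63.4% of all tested entries changed (32.8% higher and 30.6% lower). ZDHHC20 (log2 1.92, SE 0.37, edgeR adjusted p = 3.2e-05) and OGFRL1 (1.78, SE 0.35, adjusted p = 5.1e-05) rose there, and SAMD9 fell (-2.36, SE 0.57, adjusted p = 0.000557). The call of TENM1 as lower rested on 4 reads in ZC3H7B-OE 0 h replicate 2, without which its value was 0.

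Loss of labelled reads in control was a further measure that the rule did not rank, taken from part of the same control reads. It could be tested in 42 members, and the other 15 had too few labelled reads. Labelled reads fell in 28 of the 42, against 75.5% of 8763 tested entries, and 14 were not called (edgeR slope over hours, adjusted p under 0.05). The half-life, taken as 1 h divided by the log2 slope per hour, had a median of 3.27 h in the 28 called members, from 1.88 to 6.90 h. Over all 42 tested members the median slope was -0.25 per hour on the log2 scale, against -0.26 over all tested entries. Half-lives here include dilution by new mRNA and by growth. Over all control entries the labelled share hardly fell between 0 and 2 h (76.9% and 75.8%), then stood at 47.7% and 30.0%. A single slope from 0 h does not follow such a delay, so the half-lives are approximate. EGR1 had a half-life of 2.15 h (slope -0.47, SE 0.06), EGR3 of 2.43 h, LIPH of 2.78 h (slope -0.36, SE 0.06), C3orf14 of 2.83 h, SAMD9 of 2.56 h and MBTPS2 of 3.33 h. These 6 kept their call with each library left out and under the other settings tried. The shortest value was that of MTX2, which was no longer called once control 0 h replicate 3 was left out (adjusted p = 0.117). The longest was that of OGFRL1, lost without control 6 h replicate 1 (0.0522) or 6 h replicate 3 (0.0665). TENM1, by contrast, was not called (slope -0.13, SE 0.07, adjusted p = 0.0884).

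The labelled share of a gene's own reads, before and during the chase, separated the members further. In control EGR1 went from 93.5% labelled (95% interval 90.7% to 95.7%) before the chase to 48.4%, 16.4% and 6.44% (5.22% to 7.84%) at 2, 4 and 6 h. EGR3 went from 91.4% to 75.9%, 27.2% and 5.99%, and MAFF from 77.6% to 68.7%, 31.4% and 12.5%. LIPH followed all entries more closely, with 93.8%, 80.6%, 50.2% and 28.1%, where the pool of all entries held 76.9%, 75.8%, 47.7% and 30.0%. Other members kept their share to the end. CGA held 54.6%, 64.6%, 57.2% and 62.4%, GPM6A 49.1%, 58.2%, 56.8% and 62.3%, and HPGD 67.3%, 77.5%, 79.5% and 72.0%. MBTPS2 was at 87.1% before the chase and at 96.8% after 6 h (89.0% to 99.6%). For these 4 the labelled and the unlabelled reads were therefore lower together after 6 h than before the chase. The label loss of CGA was not called without control 0 h replicate 3 (edgeR adjusted p = 0.238). With a slope over 2 to 6 h alone, CGA, GPM6A and HPGD were not called (edgeR adjusted p = 0.434, 0.152 and 0.0526).

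**Figure D5:**
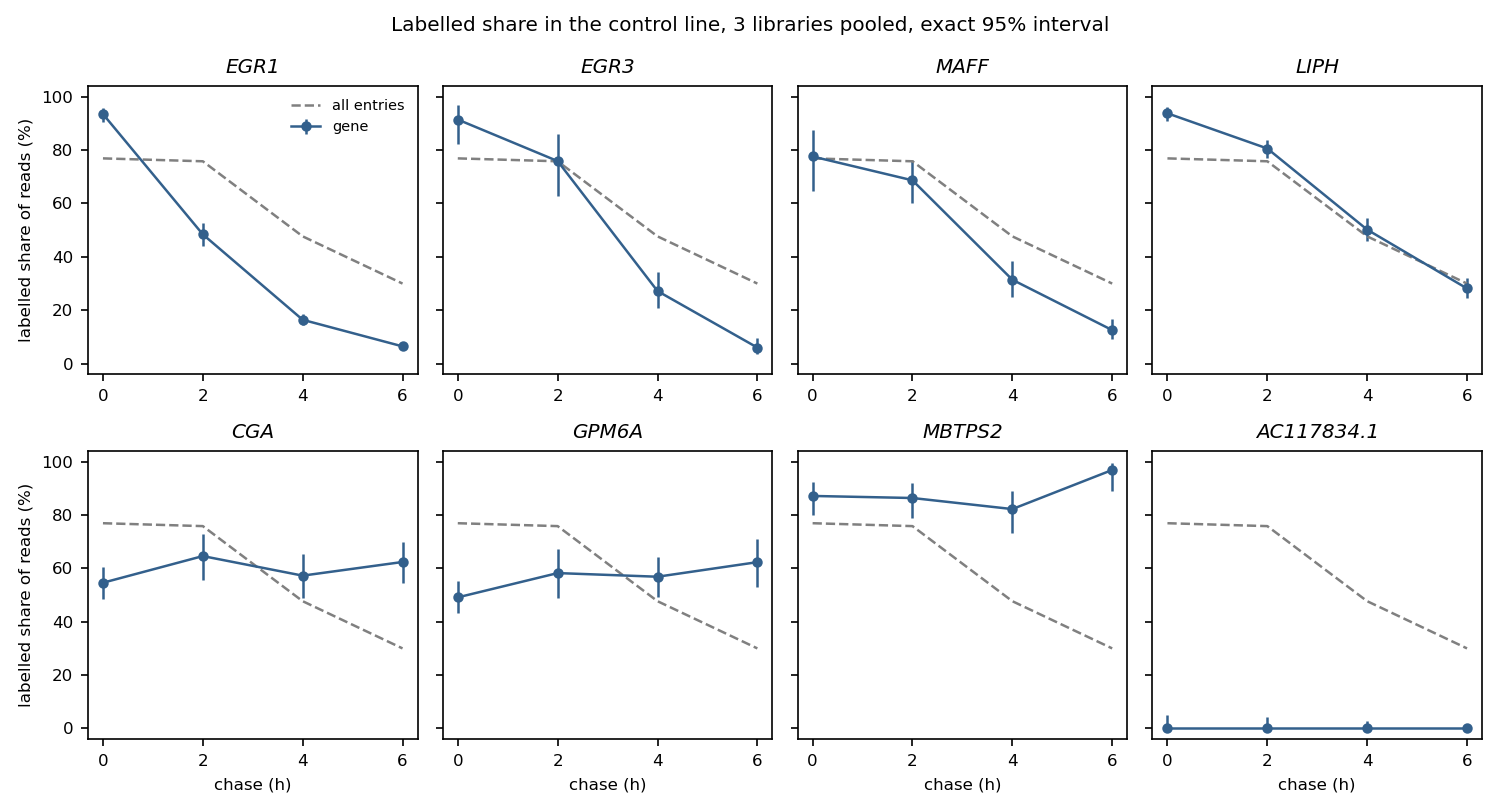
Labelled reads as a percentage of all reads of a gene in the control line against hours of chase, pooled over 3 libraries with exact 95% intervals for 8 members, beside all entries (dashed). EGR1 and EGR3 drop to about 6% by 6 h, CGA, GPM6A and MBTPS2 are no lower after 6 h than before the chase, and AC117834.1 has no labelled read.

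Some members had almost no label in control at any time. AC117834.1 had 0 labelled of 487 control reads and MYBPC2, a myosin-binding protein of fast skeletal muscle, 0 of 209, and ADAMTS4 had 8 of 157 (5.10%). Under 5% labelled reads in control was found in 272 of 9144 entries with at least 100 control reads (2.97%). The median share over the 9144 was 51.4%. Of the 57 members only AC117834.1 and MYBPC2 were under this limit, a share close to that of all entries, and ADAMTS4 was just above it. AC117834.1 had 0 labelled of 74, 84, 123 and 206 control reads at the 4 times, so after 6 h the upper 95% limit was 1.77%. In ZC3H7B-OE AC117834.1 again had 0 labelled of 166 reads. MYBPC2 had 2 labelled of 12 reads there after 4 h and 0 at the other times. ADAMTS4 had 7 labelled of 7 reads before the chase, 2 of 2 after 2 h, 3 of 14 after 4 h and 0 of 7 after 6 h. What keeps label out of these reads was not tested.

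The few reads still present in ZC3H7B-OE from the 10 members below 10% could also be split by label. Pooled over the 10 genes, control held 76.1%, 76.3%, 49.0% and 35.5% labelled reads at 0, 2, 4 and 6 h. ZC3H7B-OE held 65.2% (52.4% to 76.5%) of 66 reads, 48.2% (34.7% to 62.0%) of 56, 28.4% (18.0% to 40.7%) of 67 and 22.0% (14.0% to 31.9%) of 91. The ratio of reads between genes differs between the lines, so the pools do not hold the same mixture. For all 57 members the shares were 82.4%, 75.3%, 44.4% and 27.0% in control and 79.8%, 69.2%, 34.4% and 21.2% in ZC3H7B-OE. Over all entries they were 76.9%, 75.8%, 47.7% and 30.0% against 74.8%, 71.8%, 45.5% and 29.6%. No test was made of these pools.

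Position along the chromosome was a further property outside the rule. Gene order from RefSeq placed 55 members among 9408 tested single-gene entries. Neighbours are the nearest tested genes, so untested genes may lie between them and the member. In this order 3 pairs of members were next to each other: MYBPC2 and FAM71E1, HPGD and GPM6A, and UBE2V2 and SNAI2. Whether this number of pairs is unusual was not tested. Of 103 tested neighbours that were no members, 50 were lower in ZC3H7B-OE (48.5%), 10 higher and 43 not called, against 25.4% lower over all tested entries. Their median log2 difference was -0.32, from -2.41 to 1.46, against 0.01 for all entries. CALCRL, a receptor next to TFPI, had the lowest value (-2.41, SE 0.64, edgeR adjusted p = 0.00255). MMP16 lay between CPNE3 (-1.37, SE 0.12, adjusted p = 6.0e-09) and NBN (-0.87, adjusted p = 1.7e-09), MICU2 next to ZDHHC20 was at -1.37 (SE 0.13, adjusted p = 3.5e-10), and PAWR next to SYT1 at -1.002 (SE 0.07, adjusted p = 2.9e-13). SPCS3, a neighbour of GPM6A, was at -1.21 (SE 0.09, adjusted p = 1.4e-12), and LIPH lay beside SENP2 at -1.04 (SE 0.25, adjusted p = 0.000934). Neighbours of other members differed in the opposite direction: RYR2 beside CHRM3 was higher (0.81, SE 0.18, adjusted p = 0.000405), as was GJB7 beside CGA (1.46, SE 0.45, adjusted p = 0.00755). Whether counting used strand is not given in the sources used here, so reads of overlapping genes on opposite strands cannot be told apart.

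Codon use was described because the title of the series names codons. The share of G or C at the third codon position had a median of 52.3% in the 55 members with a coding sequence, against 58.6% in 8635 eligible genes. It was below 50% in 27 of the 55 members (49.1%) and in 36.1% of eligible genes. In the 10 members below 10% of control the median was 50.6%, with quartiles of 45.8% and 54.9%, while the quartiles of eligible genes were 44.0% and 73.0%. The median of the members was thus lower in G or C than that of eligible genes, by less than the distance between the quartiles of eligible genes, and no test was made.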

How the data were processed

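Whole-number read counts per gene were deposited by the authors in 2 tables, not normalized: the first counts every read and the second the reads that carry T>C conversions. Per the submitters' processing notes, fastp was used with the build GRCh37. Not given in the sources used here: the aligner, the conversion caller, and the counting rule with its use of strand. All reads were fitted with edgeR 4.0.16 (R 4.3.3) by quasi-likelihood with robust estimation on all 24 libraries, 1 mean per group, TMM scaling and filterByExpr (minimum count 10), which kept 10038 entries. Contrasts were tested over all entries with Benjamini-Hochberg adjustment at 0.05. Labelled reads were fitted as a slope over hours in each line with the library sizes and factors of all reads. Scripts were tested on simulated data. CPM values are TMM-scaled, and residual levels are ratios of shares of pooled reads with exact 95% intervals. Intervals and the floor of 3 reads cover counting error only, because amplified reads are not independent when molecules carry no identifier. Replicate pairs differed by a chi-square of 2.28 to 30.4 per degree of freedom, so none was a duplicate.

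The members, gene lists and classes were chosen with earlier results of these data known. Given in full are the 20 members with the most control reads and those on the lists. From each list with a member, the 3 called non-members with the smallest adjusted p are named, and neighbours of members with the larger differences were picked after their values were seen. RefSeq tables (GRCh38.p14), matched by symbol, gave promoters and gene order, and GENCODE coding sequences gave the third codon positions. Since the build differs, no coordinates of the count tables are given. Alternatives were another scaling, no filter, DESeq2 1.42.0, a replicate block, other forms of the rule and each library or time left out. The values of 1 member are not reported here.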

Additional observations from a re-analysis of the deposited data

How the results depend on the processing

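Membership depended on the form of the rule. Of the 57 members, 33 were chosen again with at least 200 pooled control reads, 26 from labelled reads alone and 33 without the 6 h libraries. The first setting ranks fewer genes, and the others hold fewer reads per gene. Labelled reads alone and the pool without 6 h can also give a gene another ratio. How much each of these lowered the number kept was not tested. BCHE, CHRM3, MMP16 and SNAI2 fell below the minimum of control reads in all 3 (200 in the first, 100 in the others). These settings thus could not rank them, and nothing about their ratio is read from their absence. They had 142, 117, 159 and 127 control reads, of which 70, 41, 70 and 32 were labelled. The other 6 members below 10% of control were kept. With at least 50 reads 38 were kept, with the mean of TMM-scaled CPM 52, without 0 h, 2 h or 4 h 47, 48 and 41, and with single libraries left out 47 to 55. The test of change with time called 0 members, 3 without the filter on low counts and 2 with DESeq2, and 0 to 1 with single libraries left out. Over all entries it called 174, 942 without the filter, 748 with DESeq2, and 48 to 709 with single libraries left out; the cause was not tested. Members called in the control chase (26) ranged from 22 to 27, in the ZC3H7B-OE chase (15) from 12 to 19, and in label loss (28) from 21 to 28. With single libraries left out TENM1 ran from -4.42 to 0 (log2) in the ZC3H7B-OE chase, the latter without ZC3H7B-OE 0 h replicate 2. For single genes, 701 of 728 refits kept the call and direction in the control chase, 391 of 420 in the ZC3H7B-OE chase, 798 of 800 for named relatives and 704 of 767 for label loss.

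No pairing by replicate number was seen in the deviations of samples from their group means. Same-numbered samples of different groups correlated between -0.16 and 0.21 (median -0.004), and 6 of 84 pairs were over 0.1. Other-numbered samples correlated between -0.18 and 0.22 (median -0.0006), and 14 of 168 pairs were over 0.1. With the replicate block the control chase called 27 members, the ZC3H7B-OE chase 14, label loss 27 and the change with time 0 (132 entries), and 4541 entries differed between the lines, against 4596. INHBA lost its call in the ZC3H7B-OE chase under the block (adjusted p = 0.0556). At this depth, a gene with a few reads per library and time cannot be placed beyond the width of its interval.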
